A study of Mus musculus with 15 samples.

Results

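The genes described are 44 complement and coagulation genes, 22 of each system, taken as a list of gene symbols and found in the authors' FPKM table as 44 records, 1 for each gene, among 23349 genes after records of the same symbol were summed. All 44 reached 1 FPKM in at least 3 libraries, as did 13757 genes in all. RNA was sequenced from the liver, duodenum, jejunum, ileum and large intestine (colon) of male wild-type C57BL/6 mice of 2 to 3 months, with 3 libraries for each tissue and 15 in all, and the labels name no treatment. FPKM counts fragments relative to transcript length and to the total mapped in that library. Each library carries its tissue's name and the number of its title, and values below follow the order liver 24, 26 and 27, duodenum 24, 27 and 28, jejunum 24, 27 and 28, ileum 24, 25 and 27, and large intestine 24, 25 and 27. Whether the 3 samples of a tissue are from different animals is not stated in the labels, so the p-values reflect the spread among samples, and that spread may be technical.

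Complement is a cascade of plasma proteases that marks surfaces for removal. It starts from antibody through C1 (the classical pathway), from sugars through mannose-binding lectins (the lectin pathway) or by the turnover of C3 on a surface (the alternative pathway), and it ends in a pore made by the terminal components. Coagulation is a second protease cascade, set off by tissue factor or by the contact system, in which thrombin cuts fibrinogen to fibrin. Hepatocytes secrete most of the circulating proteins of both systems, while macrophages, fat cells, endothelium, fibroblasts and epithelium are known sources of some of them.

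Liver and intestinal libraries were told apart as labelled. The summed level of 6 gut epithelium markers was 13.9 to 22.8 FPKM in liver libraries and 1385 to 2582 in intestinal ones. That of 8 hepatocyte markers was 50412 to 58487 in liver libraries and 22.6 to 218 in intestinal ones. These sums do not check which section of the intestine a library came from. Libraries stood apart in 3 ways that bear on the values below. The library labelled jejunum 24 had 6731 FPKM of Fabp6, the ileal bile acid-binding protein, and that labelled ileum 24 had 255, while the other jejunum libraries had 23.1 and 5.61 and the other ileum libraries 6597 and 8112; results that rest on these 2 libraries are given with and without them. Albumin (Alb), the main product of hepatocytes, was at 15.5 FPKM in duodenum 24, 12.2 in duodenum 28 and 13.2 in large intestine 25, and between 0.0899 and 0.671 in the other 9 intestinal libraries. The summed level of 6 pancreatic acinar markers was 198 FPKM in duodenum 28, 25 in jejunum 28 and 13.9 in large intestine 25, and at most 11.5 in the other intestinal libraries.

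Most of the 44 genes were hepatic. Liver had the highest mean of the 5 tissues for 35 of the 44 genes. Limma was used on log2(FPKM + 1), a scale that understates differences of genes near 0, and a gene was called where the adjusted p (Benjamini-Hochberg over the 13757 genes) was under 0.05 and the log2 difference at least 1. Between the mean of the 4 intestinal sections and liver, 34 of the 44 genes were lower, beside 8.90% of all genes tested, and 4 were higher, beside 35.7%. The median log2 difference was -5.99 over the 44 genes and 0.72 over all genes. Of the 44, 19 reached 1 FPKM in liver libraries only and 1, Vwf, in intestinal libraries only. These had to differ once they passed the filter. The 19 were Masp1, Masp2, Mbl1, Hc, C8a, C8b, C9, F2, F7, F9, F10, F11, F12, F13b, Fga, Klkb1, Kng1, Plg and Cpb2. Among the other 24, 15 were lower, 3 were higher and 6 were not called, with a median of -4.31. Some of the 24 also passed the filter through 1 side alone. F5, Fgb and Fgg reached 1 FPKM in 1, 2 and 2 intestinal libraries, so they needed the liver libraries to pass. Cfd and Thbd were under 1 FPKM in liver 27, so they needed the intestinal ones. In bulk tissue, fewer cells of a type and less RNA per cell cannot be told apart.

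Section by section, the duodenum had 34 genes lower than liver and 3 higher, beside 9.19% and 30.6% of all genes. The jejunum had 34 lower and 5 higher, beside 8.94% and 36.9%. The ileum had 34 lower and 6 higher, beside 9.24% and 34.3%, and the large intestine 35 lower and 5 higher, beside 8.99% and 41.8%. By these calls, 22 genes were lower in all 4 sections with every section mean under 1 FPKM (7 complement and 15 coagulation genes). Another 12 were lower in all 4 sections with a section mean of at least 1 FPKM (10 complement and 2 coagulation genes). In these 34 genes every liver library exceeded every intestinal library. A further 6 were higher in at least 1 section and lower in none (Cfd, Cd55, F3, Thbd, Tfpi and Vwf), with every liver library below every intestinal one. The other 4 had overlapping libraries (C1qa, C1qb, C1qc and Pros1). How many of all genes tested had no overlap between liver and intestinal libraries was not computed, so these counts have no share beside them.

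Scaling matters for the calls of higher genes. As deposited, the mean of the sections exceeded liver by a median of 0.72 over all genes, and 1225 genes were lower and 4914 higher. With median-of-ratios scaling that shift was 0.03 and the calls 2304 and 2587, and with quantile normalization 0.01, 1975 and 2372. The count of the 44 genes called lower in a section stayed between 34 and 38 under every alternative tried, while that of genes called higher ranged from 1 to 6.

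**Figure D1:**
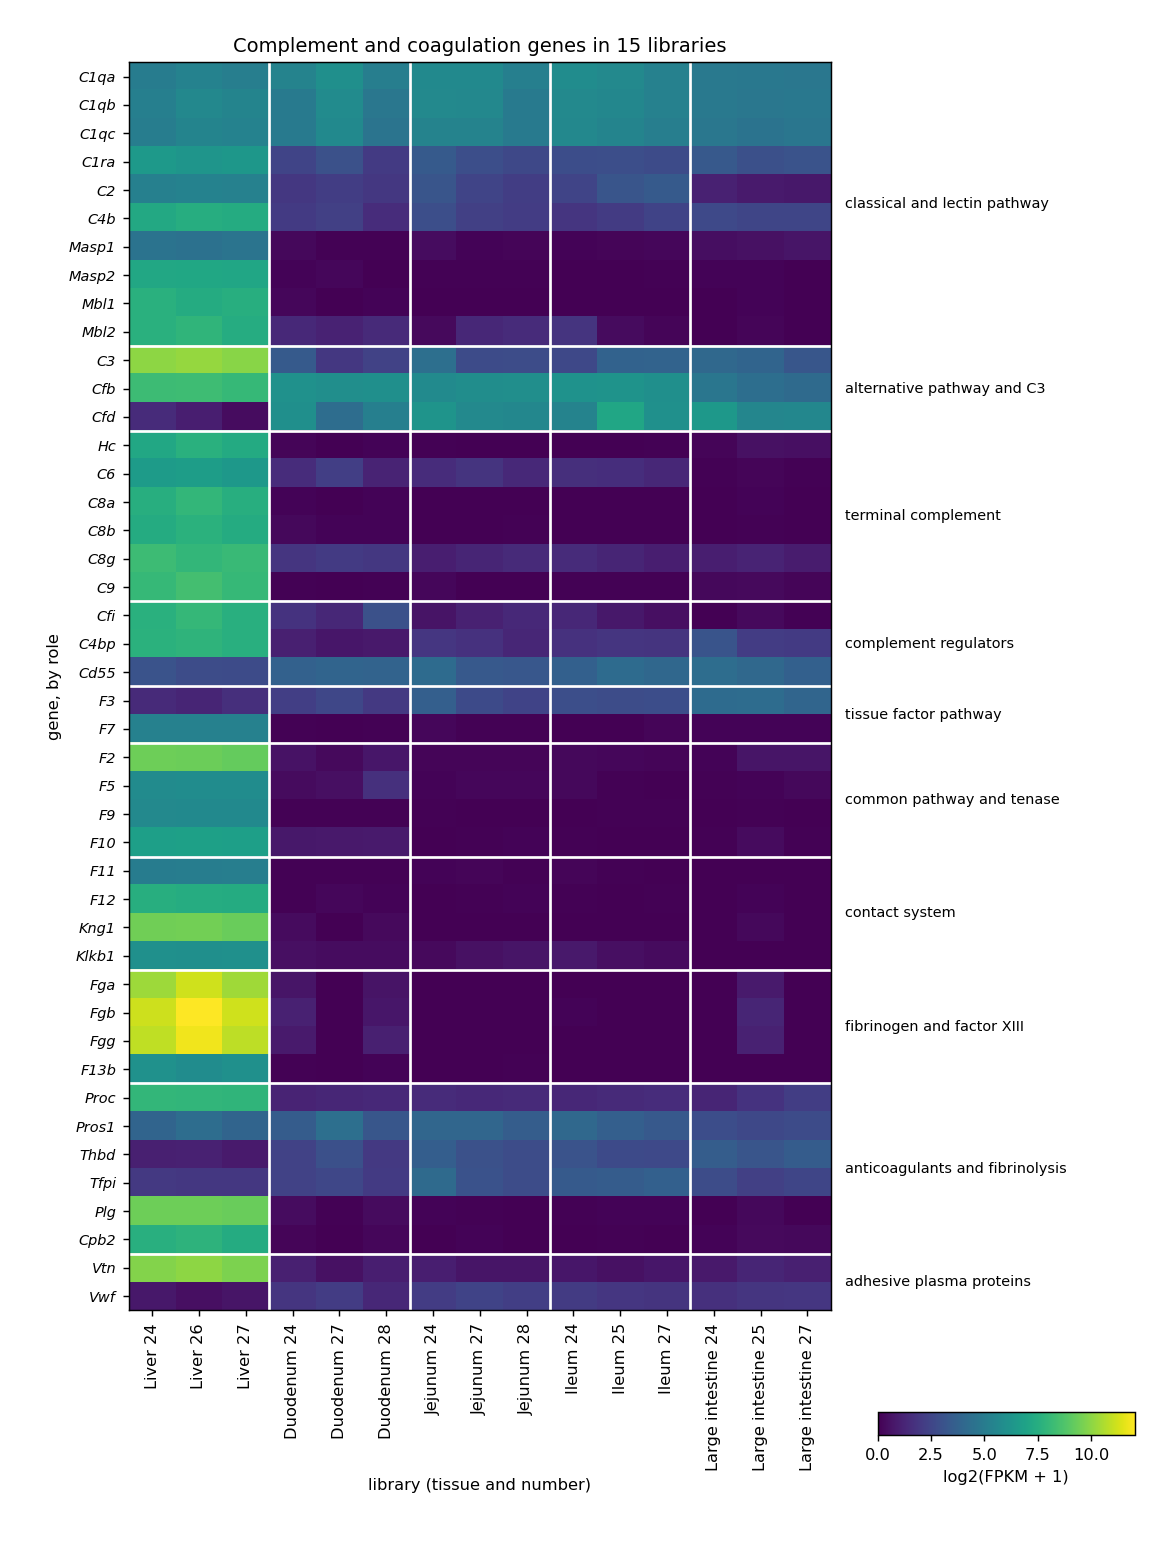
Levels of the 44 genes, as log2(FPKM + 1), in the 15 libraries (columns, grouped by tissue) with genes in rows ordered by role. Most rows are brightest in the 3 liver libraries. C1qa, C1qb, C1qc, Pros1, Cfd, Cd55, F3, Thbd, Tfpi and Vwf are the genes not called lower than liver in all 4 sections. Some of the genes called lower also have intestinal signal, most of all Cfb, with a section mean of up to 67.9 FPKM.

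**Figure D2:**
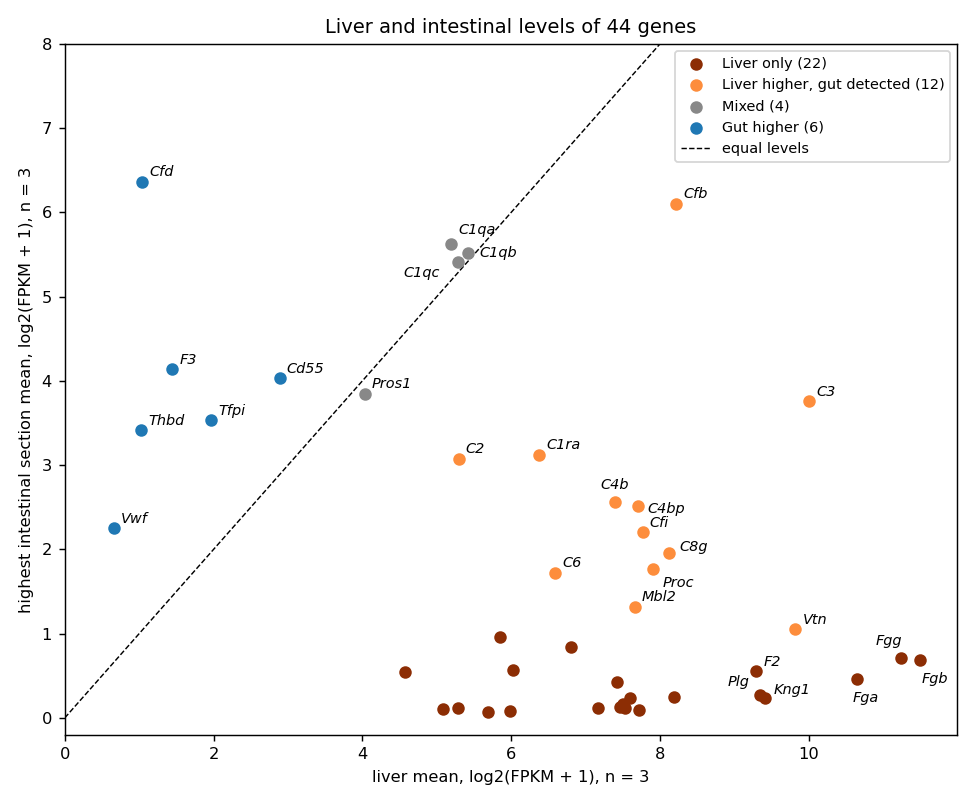
Liver mean (x axis) against the highest of the 4 section means (y axis), both log2(FPKM + 1) with n = 3 libraries, for the 44 genes. "Liver only" marks the 22 genes with every section mean under 1 FPKM, and 6 genes called higher in a section lie above the dashed line of equal levels.

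Fibrinogen, the substrate of clotting, showed the highest liver levels, and its section means were all under 1 FPKM. Its 3 chains are encoded side by side on chromosome 3 (mm10), with Fgg at chr3:83007896-83015049, Fga at chr3:83026153-83033617 and Fgb at chr3:83042305-83049790. Fgb stood at 2215, 4192 and 2274 FPKM in liver, 1.18, 0 and 0.658 in duodenum, 0.0276, 0 and 0 in jejunum, 0.0965, 0.0194 and 0.0148 in ileum and 0, 1.38 and 0 in large intestine. Every liver library exceeded every intestinal one, and liver 26 was the highest of the 3. Fga had a liver mean of 1599 ± 591 FPKM (SD, n = 3) and Fgg 2416 ± 922, both again highest in liver 26. The log2 difference of the mean of the sections from liver was -11.16 (SE 0.28, adjusted p = 4.04e-13) for Fgb, -10.40 for Fga and -10.92 for Fgg.

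Within the intestine, the fibrinogen chains were highest in the 3 libraries with more albumin. There Fga was between 0.546 and 0.799 FPKM, Fgb between 0.658 and 1.38 and Fgg between 0.848 and 1.14. In the other 9 intestinal libraries the chains were at most 0.0965 FPKM, and Fgg was listed at 0 in 7 of them. As a share of the liver mean, Fgb was 0.0408% in duodenum 24, 0.0227% in duodenum 28 and 0.0475% in large intestine 25, beside 0.0599%, 0.0470% and 0.0511% for Alb. Whether hepatocyte RNA accounts for these levels was not tested. F13b, the carrier subunit of the fibrin-crosslinking factor XIII, was at 62.4 ± 5.44 FPKM in liver and at most 0.10 in any intestinal library.

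The stretches of 250 bases before the starts of genes for subunits of a single protein are shown because these genes sit side by side and were high in the same liver libraries, the fibrinogen chains and the alpha and beta chains of complement C8. They are from RefSeq (GRCm38.p6), read 5′ to 3′ on the gene's strand, with matches to GTTAAT (a half-site of the hepatocyte factor HNF1) and TTGCNNAA (a C/EBP motif) in capitals on either strand. Starts are those of RefSeq, which lie 73 bases before the start in the deposited table for Fgb and 172 for Fgg and match it for the others. Coordinates are chr3:83025903-83026152, plus strand (Fga), chr3:83049864-83050113, minus strand (Fgb), chr3:83007474-83007723, plus strand (Fgg), chr4:104876399-104876648, minus strand (C8a) and chr4:104766067-104766316, plus strand (C8b).
Fga: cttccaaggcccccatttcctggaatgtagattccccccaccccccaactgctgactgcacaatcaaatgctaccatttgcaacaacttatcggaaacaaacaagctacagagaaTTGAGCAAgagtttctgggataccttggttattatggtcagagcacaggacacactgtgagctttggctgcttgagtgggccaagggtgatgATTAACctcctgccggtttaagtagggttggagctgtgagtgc
Fgb: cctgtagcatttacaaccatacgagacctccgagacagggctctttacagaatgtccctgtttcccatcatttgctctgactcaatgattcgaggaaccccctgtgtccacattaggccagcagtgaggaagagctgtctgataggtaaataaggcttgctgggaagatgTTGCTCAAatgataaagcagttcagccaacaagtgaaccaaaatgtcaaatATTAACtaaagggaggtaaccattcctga
Fgg: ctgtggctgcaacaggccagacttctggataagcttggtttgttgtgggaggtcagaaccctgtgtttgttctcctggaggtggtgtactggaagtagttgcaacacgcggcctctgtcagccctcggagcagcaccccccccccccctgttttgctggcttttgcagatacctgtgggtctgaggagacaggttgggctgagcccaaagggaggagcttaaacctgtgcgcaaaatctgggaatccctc
C8a: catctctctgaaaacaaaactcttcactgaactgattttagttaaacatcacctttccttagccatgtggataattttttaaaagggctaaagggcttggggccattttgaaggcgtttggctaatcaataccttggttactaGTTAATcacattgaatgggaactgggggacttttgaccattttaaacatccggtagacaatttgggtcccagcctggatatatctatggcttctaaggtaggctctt
C8b: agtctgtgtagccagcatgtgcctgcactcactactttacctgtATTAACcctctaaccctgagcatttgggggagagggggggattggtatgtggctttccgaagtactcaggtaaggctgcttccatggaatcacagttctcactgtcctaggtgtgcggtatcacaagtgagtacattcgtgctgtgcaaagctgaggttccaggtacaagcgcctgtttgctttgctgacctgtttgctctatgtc

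Fga had an HNF1 half-site at bases 43 to 38 before its start and Fgb at bases 29 to 24, in both cases on the opposite strand (ATTAAC). Both also held the C/EBP letters, at bases 135 to 128 in Fga and 80 to 73 in Fgb. C8a held GTTAAT at bases 107 to 102 and C8b held ATTAAC at bases 206 to 201. Neither motif was found in the Fgg window, and the motifs do not overlap each other in these windows. Of the 44 genes, 33 were in the promoter table. GTTAAT was in 9 of these 33 (27.3%; C1ra, C4bp, C8a, C8b, F13b, Fga, Fgb, Hc and Vtn), beside 6.47% of 32544 promoters of the same length. TTGCNNAA was in 7 of 33 (21.2%; C3, C9, F11, F9, Fga, Fgb and Klkb1), beside 9.58%. The letters CAAAGTCCA, a form of the HNF4 motif, were in 0 of 33, beside 0.387%. These matches describe letters and show no binding.

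The protease zymogens of clotting were high in liver and low in every intestinal library. F2, which encodes prothrombin, stood at 654, 648 and 582 FPKM in liver, 0.514, 0.229 and 0.661 in duodenum, 0.117, 0.139 and 0.124 in jejunum, 0.183, 0.150 and 0.126 in ileum and 0.0902, 0.589 and 0.578 in large intestine. The lowest liver library was 882 times the highest intestinal library. The difference of the mean of the sections from liver was -8.94 (SE 0.11, adjusted p = 3.47e-17). F2 passed the filter through liver alone and had to differ. F9 and F10, which form part of the complexes that activate factor X and prothrombin, were at 50.8 ± 0.566 and 111 ± 3.26 FPKM in liver, and F9 did not exceed 0.0651 in the intestine.

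F10 and F5 were less even along the gut. F10 was at 0.721, 0.786 and 0.856 FPKM in duodenum and at most 0.278 in the other 9 intestinal libraries. Its range of section means on the log2 scale was 0.79, under the minimum of 1 set for a call, with an adjusted p of 1.31e-05. F5, the cofactor of factor Xa, was at 56.5 ± 1.04 FPKM in liver and reached 2.17 in duodenum 28, beside 0.0259 to 0.419 in the other intestinal libraries. Duodenum 28 was also the library with the most pancreatic acinar marker RNA, and its part in the F5 value was not tested.

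In the tissue factor pathway, F7, the plasma protease that tissue factor activates, and F3, tissue factor itself, were opposite in direction. F7 stood at 38.5, 38.2 and 37.7 FPKM in liver, 0.0474, 0.0164 and 0.0547 in duodenum, 0.172, 0.0498 and 0.0444 in jejunum, 0.0219, 0.0161 and 0.111 in ileum and 0.0863, 0.0905 and 0.0724 in large intestine. The liver libraries were within 1 FPKM of each other, every intestinal library was near 0, and the difference of the mean of the sections was -5.20 (SE 0.06, adjusted p = 1.35e-17). F7 passed the filter through liver alone and had to differ. F7 lies 1498 bases from F10 on chromosome 8, at chr8:13026034-13035809 and chr8:13037308-13056676.

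The contact system starts clotting on charged surfaces and releases bradykinin from kininogen. Kng1, which encodes kininogen, stood at 696, 709.6 and 629 FPKM in liver and was listed at 0 in 9 of the 12 intestinal libraries. The other 3 were those with more albumin, at 0.297 FPKM in duodenum 24, 0.251 in duodenum 28 and 0.188 in large intestine 25. Its log2 difference was -9.33 (SE 0.08, adjusted p = 1.73e-18), and Kng1 had to differ since it passed the filter through liver alone. The neighbouring Kng2 is a close copy, so reads may be shared between Kng1 and Kng2. F12 had a liver mean of 175 ± 7.42 FPKM, F11 of 32.8 ± 1.17 and Klkb1, plasma prekallikrein, of 64.4 ± 1.64.

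Klkb1 was the member of the contact system with the most intestinal signal. It was at 0.408, 0.315 and 0.322 FPKM in duodenum, 0.246, 0.468 and 0.581 in jejunum, 0.764, 0.405 and 0.290 in ileum and 0.0239, 0.00833 and 0.0213 in large intestine. All 9 small intestine libraries exceeded all 3 large intestine libraries, although the difference of -0.47 was under the minimum for a call. F11, its neighbour 7419 bases away on chromosome 8, did not exceed 0.125 FPKM in the intestine. The protein-coding gene Gm45753 shares exon sequence with Klkb1 on the same strand, so its low intestinal values are uncertain.

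Complement initiation divided between C1q and the rest. C1q is the recognition part of C1, built of chains A, B and C, whose genes stand in a row on chromosome 4 (C1qb at chr4:136880145-136886177, C1qc at chr4:136889802-136892914 and C1qa at chr4:136895916-136898844). C1qb stood at 36.0, 47.6 and 42.2 FPKM in liver, 30.3, 54.1 and 26 in duodenum, 49.1, 47.4 and 29.8 in jejunum, 50.5, 46.1 and 37.8 in ileum and 27.9, 26.5 and 26.8 in large intestine. C1qa stood at 32.7, 39.5 and 34.3 FPKM in liver, 40.5, 63.2 and 34.0 in duodenum, 51.5, 50.8 and 35.1 in jejunum, 56.0, 50.1 and 38.6 in ileum and 28.4, 27.3 and 26.7 in large intestine. C1qc stood at 33.1, 41.5 and 39.0 FPKM in liver, 29.7, 51.1 and 24.1 in duodenum, 40.6, 40.8 and 29.4 in jejunum, 48.1, 41.9 and 34.4 in ileum and 25.9, 22.9 and 25.4 in large intestine. In all 3 genes the liver libraries lay inside the range of the intestinal libraries, and the 3 large intestine libraries were below all 3 liver libraries.

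No section was called different from liver for C1qa, C1qb or C1qc. In the large intestine the differences were -0.35 (SE 0.21, adjusted p = 0.125), -0.60 (SE 0.24, adjusted p = 0.0311) and -0.59 (SE 0.22, adjusted p = 0.0242), all under the minimum of 1. Against the small intestine they were -0.71 (SE 0.17, adjusted p = 0.00252), -0.55 (SE 0.20, adjusted p = 0.0280) and -0.56 (SE 0.18, adjusted p = 0.0179). The 3 chains kept to each other closely: within a library the highest chain was 1.06 to 1.41 times the lowest, while the sum of the chains ranged from 76.7 to 168 FPKM over the 15 libraries.

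C1q is known as a macrophage product. Duodenum 27 was the highest intestinal library for C1qa, C1qb and C1qc and for Csf1r, the macrophage growth factor receptor (22.1 FPKM), and duodenum 28 was the lowest for Csf1r (6.59 FPKM) and for C1qb. The sum of 7 measured macrophage markers was 92.0 to 94.1 FPKM in liver libraries, 94.9 to 169 in duodenum, 155 to 309.7 in jejunum, 251 to 261 in ileum and 127 to 167 in large intestine. In the mean of the sections 3 of the 7 were higher than in liver and 0 lower, beside 35.7% and 8.90% of all genes. In duodenum 2 were higher and 1 lower, and in large intestine 3 were higher and 1 lower. By this sum duodenum 27 was number 6 of the 12 intestinal libraries and the library labelled jejunum 24 the highest, an order other than that of C1q, and every ileum library was above liver in the sum while C1qb overlapped. Markers of Kupffer cells, the resident liver macrophages, summed to 78.9 to 105 FPKM in liver and 0.314 to 5.74 in the intestine. Their defining genes Clec4f and Cd5l were at most 0.0497 and 0.143 FPKM in the intestine. The part of macrophage content in the C1q levels was not tested.

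The C1 protease gene C1ra stood at 87.2, 76.8 and 81.7 FPKM in liver, 4.58, 6.83 and 3.09 in duodenum, 9.47, 6.48 and 5.02 in jejunum, 6.29, 6.52 and 5.78 in ileum and 9.13, 6.54 and 7.46 in large intestine. Every liver library exceeded every intestinal one by at least 8.11-fold, and the mean of the sections differed by -3.52 (SE 0.17, adjusted p = 2.17e-10). The close copy C1rb makes the C1ra value uncertain, and C1rb itself was at 29.9 ± 2.76 FPKM in liver and 1.46 to 2.91 in the section means. C4b, whose product C1 and the lectin proteases cut, was at 167 ± 15.3 FPKM in liver and at 3.18, 3.82 and 1.90 in duodenum, 6.36, 3.92 and 3.43 in jejunum, 2.68, 3.28 and 4.44 in ileum and 5.35, 4.71 and 4.74 in large intestine. It was 1.78% to 2.96% of liver by section, with the near-identical C4a as a possible source of shared reads.

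C2, the protease that joins C4b in the classical C3 convertase, stood at 36.8, 39.6 and 38.3 FPKM in liver, 2.89, 3.61 and 2.91 in duodenum, 7.91, 4.53 and 3.51 in jejunum, 4.45, 8.07 and 9.78 in ileum and 1.17, 0.811 and 0.701 in large intestine. Liver libraries did not overlap with intestinal ones, and large intestine libraries did not overlap with those of the small intestine. Section means were 8.21%, 13.9%, 19.4% and 2.34% of liver from duodenum to large intestine. The library labelled jejunum 24 was nearer to ileum 25 and 27, and that labelled ileum 24 nearer to the other jejunum libraries.

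Of the lectin pathway genes among the 44, Mbl2 alone passed 1 FPKM in an intestinal library. Mbl1 and Mbl2 encode the mannose-binding lectins, and Masp1 and Masp2 the proteases bound to them. Mbl2 stood at 201, 229.9 and 174 FPKM in liver, 1.60, 1.20 and 1.68 in duodenum, 0.236, 1.52 and 1.84 in jejunum, 2.48, 0.272 and 0.138 in ileum and 0.0202, 0.106 and 0 in large intestine. Its mean difference from liver was -6.85 (SE 0.30, adjusted p = 1.29e-10). Mbl1, at 184 ± 16.1 FPKM in liver, was listed at 0 in 9 intestinal libraries and reached 0.177 at most. Masp2 was at 143 ± 2.69 FPKM in liver and at most 0.144 in the intestine. Masp1 had the lowest liver mean of the genes with all section means under 1 FPKM, 22.8 ± 1.31, and was at 0.346, 0.444 and 0.587 in large intestine beside 0.0573 to 0.316 in small intestine libraries. Masp2 shares exon sequence with Tardbp on the other strand, and whether counting used the strand is not given in the sources used here. Hc, Cd55, F5 and Fgg overlap a noncoding gene on the other strand, with the same limit.

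Of the alternative pathway genes, C3 and Cfb were called lower than liver and Cfd higher in all 4 sections. C3, the protein on which all pathways meet, stood at 1021, 1111 and 936 FPKM in liver, 9.50, 2.89 and 4.14 in duodenum, 19.9, 5.68 and 5.89 in jejunum, 5.04, 12.9 and 13.2 in ileum and 15.9, 13.5 and 8.31 in large intestine. Liver and intestine did not overlap, section means were 0.539% to 1.23% of the liver mean, and the difference was -6.75 (SE 0.40, adjusted p = 6.71e-09). Among intestinal libraries C3 spread widely, from 2.89 in duodenum 27 to 19.9 in the library labelled jejunum 24.

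Cfb, the protease of the alternative C3 convertase, had, of the 34 genes lower than liver in all 4 sections, the highest small intestine levels relative to liver. It stood at 307, 313 and 267 FPKM in liver, 66.5, 60.3 and 62.9 in duodenum, 53.4, 59.5 and 60.2 in jejunum, 68.7, 71.7 and 63.2 in ileum and 25.5, 19.1 and 16.9 in large intestine. Its section means were 21.4%, 19.5%, 23.0% and 6.94% of liver from duodenum to large intestine, and the lowest liver library was 3.72 times the highest intestinal library. The difference from liver was -2.21 (SE 0.13, adjusted p = 1.33e-09) in duodenum and -3.80 (SE 0.13, adjusted p = 3.14e-12) in large intestine. Cfb (chr17:34856374-34862514) and C2 (chr17:34862602-34882100) lie 87 bases apart on the minus strand of chromosome 17, and the read-through gene Gm20547 overlaps exons of both, so some reads may be shared.

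Cfd, which encodes factor D (adipsin), the protease that cuts factor B and a known product of fat cells, was opposite to the rest of its pathway. It stood at 1.78, 1.03 and 0.330 FPKM in liver, 63.4, 18.4 and 35.8 in duodenum, 73.9, 49.4 and 46.2 in jejunum, 40.8, 139 and 64.3 in ileum and 83.3, 44.4 and 47.0 in large intestine. Every intestinal library exceeded every liver library, with a wide spread within sections. Differences from liver were 4.19 (SE 0.51, adjusted p = 8.96e-06), 4.84 (SE 0.51, adjusted p = 2.13e-06), 5.21 (SE 0.51, adjusted p = 1.14e-06) and 4.86 (SE 0.51, adjusted p = 1.78e-06) from duodenum to large intestine. Cfd was called higher in all 4 sections under each of the scalings tried. No difference among the sections was called (range 1.02, adjusted p = 0.333).

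Adipocyte markers were set beside Cfd. Adipoq, the fat cell hormone adiponectin, stood at 0.0395, 0.11 and 0 FPKM in liver, 19.6, 4.44 and 12.2 in duodenum, 18.8, 13.6 and 14.9 in jejunum, 10.9, 35.7 and 17.3 in ileum and 15.6, 7.04 and 10.5 in large intestine. Ileum 25 was the highest and duodenum 27 the lowest of the intestinal libraries for both genes. Of 5 tested adipocyte markers, 4 exceeded liver in the mean of the sections, beside 35.7% of all genes. Car3, which liver expressed at 1743 ± 367 FPKM, was lower. The sum of all 6 was 1334 to 2038 FPKM in liver, nearly all of it Car3, and 50.5 to 192 in the intestine. Among intestinal libraries ileum 25 was number 1 and duodenum 27 number 12 both by this sum and for Cfd. Large intestine 24, 25 and 27 were numbers 5, 11 and 10 by the sum and 2, 9 and 7 for Cfd. Lep was listed at 0 in all liver libraries. The part of fat tissue attached to the gut wall in the Cfd level was not tested.

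**Figure D3:**
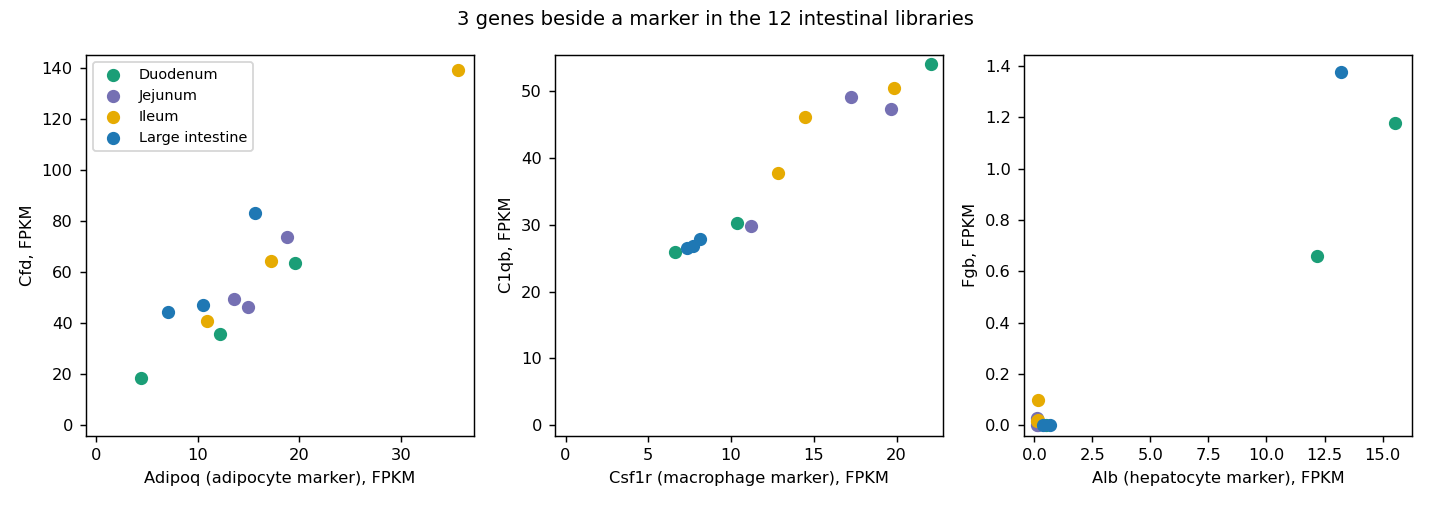
FPKM of Cfd against Adipoq, C1qb against Csf1r and Fgb against Alb in the 12 intestinal libraries, each point a library coloured by section. Ileum 25 is highest for Cfd (139 FPKM) and Adipoq (35.7), duodenum 27 for C1qb (54.1) and Csf1r (22.1), and Fgb is at least 0.658 in the 3 libraries with Alb of 12.2 or more.

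The 6 terminal components among the 44, which build the membrane pore, were called lower than liver in all 4 sections. C9, the pore-forming subunit, stood at 262, 345 and 266 FPKM in liver, 0.0669, 0 and 0.0578 in duodenum, 0.170, 0.0132 and 0 in jejunum, 0.0386, 0.0341 and 0.0650 in ileum and 0.205, 0.239 and 0.122 in large intestine. The groups did not overlap, and the difference was -8.06 (SE 0.08, adjusted p = 6.62e-18). C9, Hc, C8a and C8b passed the filter through liver alone and had to differ. Hc, the mouse gene for C5, had a liver mean of 170.1 ± 27.7 FPKM, C8a of 209 ± 37.3 and C8b of 180.2 ± 23.8, and none of them passed 0.474 FPKM in an intestinal library. C8a and C8b are neighbours on chromosome 4, 11131 bases apart, and both were highest in liver 26. C7, the terminal component that is not among the 44, was named after its values were seen. It was at 0.293 to 0.329 FPKM in liver and 0.459 to 2.58 in the intestine, and was called higher in jejunum (1.06). C7 reached 1 FPKM in 0 liver and 7 intestinal libraries, so it passed the filter through the intestine alone.

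C6 and C8g differed from the other terminal genes in having intestinal RNA. C8g, the lipocalin chain of C8, was at 278 ± 28.9 FPKM in liver, 2.68, 3.18 and 2.84 in duodenum, 1.02, 1.37 and 1.67 in jejunum, 1.83, 1.38 and 1.02 in ileum and 0.991, 1.29 and 0.912 in large intestine. All 3 duodenum libraries exceeded the other 9 intestinal libraries, with a range of section means of 0.92 (adjusted p = 2.95e-04) that stayed under the minimum for a call. In the liver the 3 chains of C8 were within 1.22 to 1.84-fold of each other, whereas in the intestine C8g exceeded the lowest of the other chains by at least 23.3-fold wherever that chain was above 0.

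C6, which binds C5b at the start of the pore, was at 95.1 ± 9.73 FPKM in liver. It stood at 1.92, 3.70 and 1.30 in duodenum, 1.87, 2.55 and 1.63 in jejunum, 2.09, 1.93 and 1.52 in ileum and 0.0478, 0.129 and 0.0366 in large intestine. The 9 small intestine libraries held 1.30 to 3.70 FPKM and the 3 large intestine libraries at most 0.129, with no overlap.

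The fluid-phase regulators Cfi and C4bp were called lower than liver in all 4 sections and the membrane regulator Cd55 in none. Cfi, the protease that cuts C3b and C4b, stood at 199, 257 and 194 FPKM in liver, 2.37, 1.55 and 6.92 in duodenum, 0.561, 1.17 and 1.58 in jejunum, 1.52, 0.731 and 0.415 in ileum and 0.0192, 0.231 and 0.0642 in large intestine. Liver was far above every section (-6.73 (SE 0.28, adjusted p = 6.59e-11)). Duodenum 28 was well above the other intestinal libraries, and it was also the library with 198 FPKM of pancreatic acinar markers, whose part in the Cfi value was not tested. C4bp, the C4b-binding cofactor of Cfi, was at 208 ± 15.8 FPKM in liver, 1.08, 0.681 and 0.755 in duodenum, 2.77, 2.26 and 1.45 in jejunum, 2.26, 2.59 and 2.49 in ileum and 7.67, 3.39 and 3.07 in large intestine. All duodenum libraries were below all other intestinal libraries, and all large intestine libraries above.

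Cd55, or decay-accelerating factor, takes C3 convertases apart on the cell's own membrane. It stood at 7.41, 6.06 and 5.74 FPKM in liver, 12.3, 13.8 and 13.2 in duodenum, 17.3, 9.18 and 8.75 in jejunum, 12, 17.6 and 15 in ileum and 18.6, 15.7 and 11.9 in large intestine. No liver library reached the lowest intestinal one, 8.75 FPKM in jejunum 28. The difference was called in ileum (1.09 (SE 0.22, adjusted p = 4.30e-04)) and large intestine (1.13 (SE 0.22, adjusted p = 2.87e-04)) and fell short of 1 in duodenum (0.93) and jejunum (0.73). With median-of-ratios scaling the differences were 0.23, -0.13, 0.29 and 0.17 from duodenum to large intestine, with no call and the opposite sign in jejunum, and quantile normalization gave no call either. Leaving out ileum 25 ended the ileum call (0.97) and leaving out large intestine 24 that of the large intestine (0.99).

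Tissue factor, which sets off clotting when blood meets extravascular cells, was a gut-high gene. F3 stood at 1.74, 1.38 and 2.05 FPKM in liver, 3.63, 4.85 and 2.99 in duodenum, 11.5, 5.60 and 4.31 in jejunum, 6.33, 6.04 and 6.21 in ileum and 17.8, 17.9 and 14.2 in large intestine. Every intestinal library exceeded every liver library, and every large intestine library exceeded the rest of the intestine. Differences from liver were 0.81 (SE 0.25, adjusted p = 0.00787), 1.49 (SE 0.25, adjusted p = 7.21e-05), 1.41 (SE 0.25, adjusted p = 1.23e-04) and 2.69 (SE 0.25, adjusted p = 1.83e-07) from duodenum to large intestine, the first of them under the minimum for a call. With median-of-ratios scaling the large intestine alone was called (1.88), as with quantile normalization (1.80). The sum of 6 fibroblast markers was 63.2 to 81.9 FPKM in liver, 70.3 to 127 in duodenum, 136 to 272 in jejunum, 161 to 179 in ileum and 276 to 378 in large intestine, and its part in the F3 level was not tested.

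Among the anticoagulants, Thbd and Tfpi were called higher than liver in sections of the intestine, and Proc and Pros1 were not. Thbd is thrombomodulin, the endothelial receptor that turns thrombin to the activation of protein C. It stood at 1.10, 1.18 and 0.825 FPKM in liver, 4.24, 6.78 and 2.94 in duodenum, 11.2, 6.88 and 5.87 in jejunum, 7.41, 5.55 and 5.28 in ileum and 10.9, 7.95 and 10.2 in large intestine. The groups did not overlap, and the differences were 1.42 (SE 0.24, adjusted p = 1.15e-04), 2.10 (SE 0.24, adjusted p = 2.46e-06), 1.79 (SE 0.24, adjusted p = 1.25e-05) and 2.39 (SE 0.24, adjusted p = 5.86e-07) from duodenum to large intestine. Thbd was called in all sections but duodenum with median-of-ratios scaling (0.96 there), and in jejunum (1.23) and large intestine (1.40) with quantile normalization.

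Tfpi, the inhibitor of the tissue factor and factor VIIa complex, stood at 2.95, 2.89 and 2.85 FPKM in liver, 4.17, 4.95 and 3.14 in duodenum, 17.0, 7.28 and 6.04 in jejunum, 9.53, 10.4 and 11.8 in ileum and 6.00, 3.85 and 4.65 in large intestine. All intestinal libraries were above the liver libraries, though duodenum 28 by little. The difference was called in jejunum (1.38 (SE 0.27, adjusted p = 3.66e-04)) and ileum (1.57 (SE 0.27, adjusted p = 1.31e-04)) and not in duodenum (0.37) or large intestine (0.57). The jejunum call rested on the library labelled jejunum 24, without which the difference was 0.97. With median-of-ratios scaling no section was called, and the sign turned in duodenum (-0.25) and large intestine (-0.28).

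Vwf, the platelet-tethering protein of endothelium and megakaryocytes, stood at 0.710, 0.415 and 0.621 FPKM in liver, 2.64, 3.47 and 1.5 in duodenum, 3.37, 4.28 and 3.66 in jejunum, 3.31, 2.76 and 2.46 in ileum and 2.22, 2.66 and 2.7 in large intestine. The liver libraries were all below 1 FPKM and the intestinal ones all above, so Vwf passed the filter through the intestine alone and had to differ. Differences were 1.13 (SE 0.17, adjusted p = 3.78e-05), 1.59 (SE 0.17, adjusted p = 1.07e-06), 1.28 (SE 0.17, adjusted p = 1.02e-05) and 1.16 (SE 0.17, adjusted p = 2.24e-05) from duodenum to large intestine. Jejunum alone was called with median-of-ratios scaling (1.11) and no section with quantile normalization, and leaving out duodenum 27 ended the duodenum call (0.94).

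Endothelial markers did not show the same difference between liver and intestine. The sum of 8 was 51.4 to 57.5 FPKM in liver and 28.2 to 61.7 in the intestine. In the mean of the sections 1 of the 8 was higher and 1 lower, beside 35.7% and 8.90% of all genes. Pecam1 was at 6.00 ± 0.790 FPKM in liver and 14.1 ± 1.93 in jejunum, and Cdh5 at 7.45 ± 0.377 and 6.17 ± 0.376. The 5 platelet and megakaryocyte markers summed to 1.16 to 1.69 FPKM in liver and 13.9 to 37.3 in the intestine. Of these 5, 2 reached 1 FPKM in at least 3 libraries, and between large and small intestine 1 was called lower and 1 higher. The part of the 5 markers in the Vwf level was not tested.

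Of the plasma anticoagulants, Proc, the gene of protein C, was at 240.1 ± 10.1 FPKM in liver and between 1.29 and 3.53 in intestinal libraries, a difference of -6.45 (SE 0.13, adjusted p = 1.00e-14). Pros1, its cofactor protein S, stood at 13.5, 18.7 and 13.9 FPKM in liver, 10.4, 20.2 and 8.30 in duodenum, 14.7, 14.7 and 10.8 in jejunum, 16.0, 11.4 and 9.44 in ileum and 6.08, 5.11 and 5.65 in large intestine. Liver and small intestine overlapped, and the large intestine libraries were all below every liver library. The difference from liver was called in the large intestine only (-1.29 (SE 0.27, adjusted p = 4.81e-04)), and was -0.31 in duodenum, -0.18 in jejunum and -0.32 in ileum. Scaling every library to the same sum of FPKM ended that call (-0.90), and with median-of-ratios scaling Pros1 was called lower than liver in all 4 sections.

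Plg and Cpb2, the fibrinolysis genes among the 44, were high in liver. Plg, or plasminogen, the precursor of the enzyme that dissolves fibrin, stood at 671, 658 and 627 FPKM in liver, 0.300, 0.0430 and 0.286 in duodenum, 0.0902, 0.0570 and 0.0290 in jejunum, 0.0573, 0.0951 and 0.0964 in ileum and 0.00706, 0.198 and 0 in large intestine. Liver libraries differed little from each other and did not overlap with the intestine (-9.21 (SE 0.08, adjusted p = 1.60e-18)). Plg passed the filter through liver alone and had to differ. Plg shares exon sequence with Slc22a3 on the other strand. Cpb2, which removes the plasminogen binding sites from fibrin, was at 193 ± 22.6 FPKM in liver and at most 0.249 in the intestine. Vtn, or vitronectin, an adhesive protein that also binds the terminal complement complex, stood at 881, 1012 and 819 FPKM in liver, 1.08, 0.476 and 1.02 in duodenum, 1.05, 0.628 and 0.596 in jejunum, 0.633, 0.467 and 0.672 in ileum and 0.775, 1.36 and 1.10 in large intestine. It was -8.97 (SE 0.12, adjusted p = 7.49e-17) relative to liver, and only the large intestine mean passed 1 FPKM (1.08), which leaving out large intestine 25 ended.

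**Figure D4:**
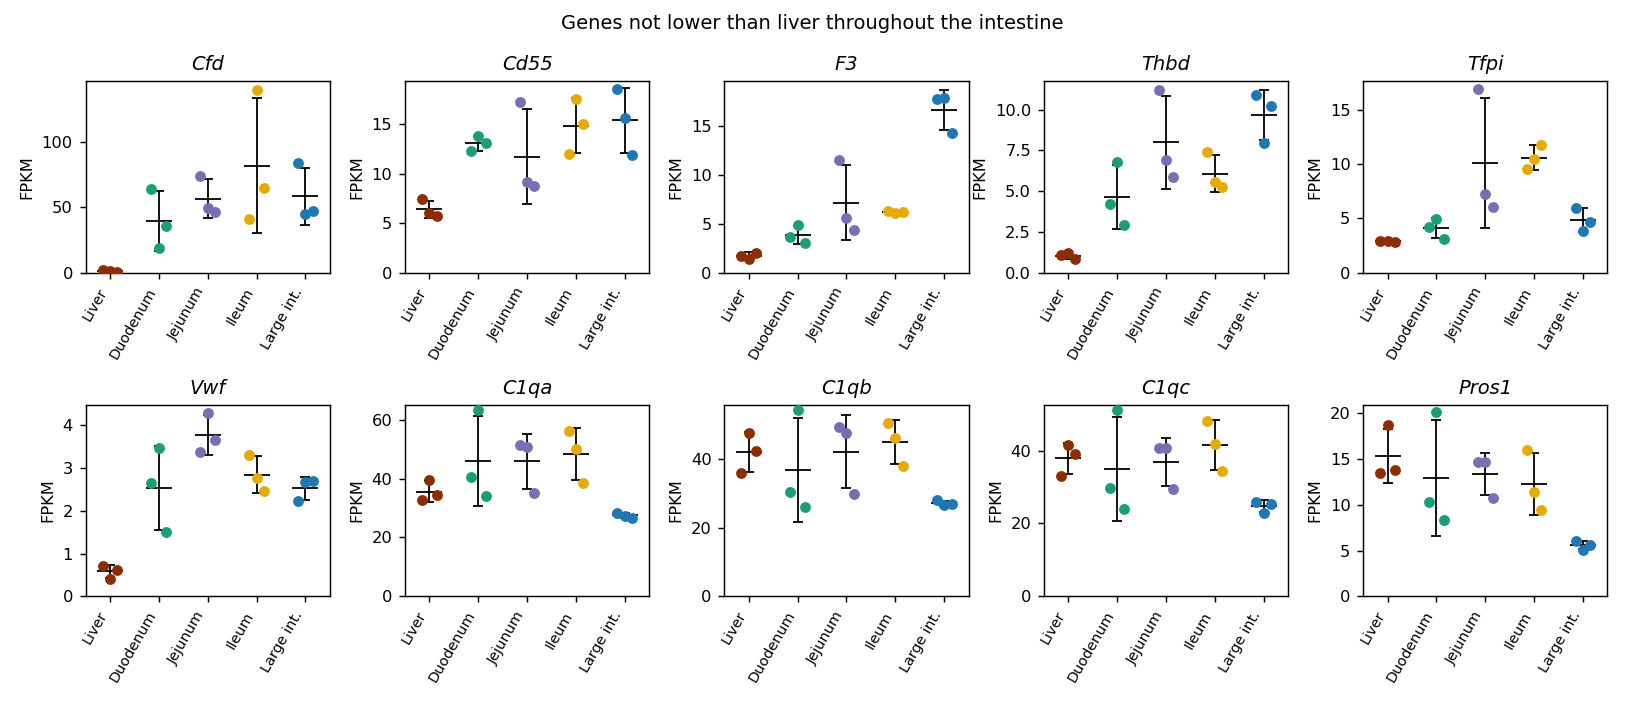
FPKM of the 10 genes that were not lower than liver in all 4 sections, by tissue, with each library as a point and mean ± SD (n = 3) as the bar. Liver points lie below all intestinal points for Cfd, Cd55, F3, Thbd, Tfpi and Vwf and among them for C1qa, C1qb, C1qc and Pros1.

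Along the intestine, 9 of the 44 genes differed among the 4 sections (C2, Cfb, C6, Cfi, C4bp, Mbl2, F3, Pros1 and Tfpi), which is 20.5% beside 20.9% of all genes tested. Between large and small intestine, 5 genes were lower in the large intestine, beside 5.84% of all genes, and 1 was higher, beside 8.78%. The lower ones were Cfb (-1.59 (SE 0.10, adjusted p = 2.90e-08)), C2 (-1.64 (SE 0.20, adjusted p = 1.50e-05)), C6 (-1.48 (SE 0.17, adjusted p = 4.98e-06)), Cfi (-1.18 (SE 0.29, adjusted p = 0.00340)) and Pros1 (-1.03 (SE 0.22, adjusted p = 0.00128)). F3 was the higher gene (1.46 (SE 0.20, adjusted p = 3.70e-05)). The median difference was 0.00 over the 44 genes and 0.16 over all genes.

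Of these, the calls of Cfb, C2, C6, Cfi and F3 held when the libraries numbered 24 of jejunum and ileum were left out, and under each scaling. Cfb and C2, the proteases of the 2 C3 convertases, were both lower in the large intestine. C3 itself, which both convertases cut, was not called (0.62 (SE 0.41, adjusted p = 0.208)). On the log2(FPKM + 1) scale the like differences of Cfb and C2 are not like folds. Their large intestine means were 20.5 and 0.895 FPKM, and the scale understates differences of genes near 0. The Pros1 call was lost without duodenum 27 (-0.91), ileum 24 (-0.96) or large intestine 25 (-0.97), without both libraries numbered 24 of jejunum and ileum (-0.94), and with the same sum of FPKM (-0.67). C4bp fell just short of the minimum in the other direction (0.99 (SE 0.19, adjusted p = 5.81e-04)) and was called without the libraries labelled jejunum 24 and ileum 24 (1.03).

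Between the ends of the small intestine, 1 of the 44 genes was lower in ileum than in duodenum, beside 1.42% of all genes, and 1 was higher, beside 1.14%. Cfi was lower (-1.15 (SE 0.35, adjusted p = 0.0415)), a call lost on leaving out any of 10 libraries in turn, with -0.68 without duodenum 28. Tfpi was higher (1.20 (SE 0.27, adjusted p = 0.0135)), and was not called without duodenum 28 (1.06), ileum 25 (1.20) or ileum 27 (1.12). Without the libraries labelled jejunum 24 and ileum 24, C2 (1.26), C3 (1.24) and Tfpi were higher in ileum, and Mbl2 (-1.05) and Cfi were lower.

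Mbl2 and C3 show how much those libraries bear on the small intestine. For Mbl2, the library labelled ileum 24 was at 2.48 FPKM beside 0.272 and 0.138 in ileum 25 and 27, and that labelled jejunum 24 at 0.236 beside 1.52 and 1.84 in jejunum 27 and 28. For C3, the library labelled ileum 24 was at 5.04 beside 12.9 and 13.2, and that labelled jejunum 24 at 19.9 beside 5.68 and 5.89. In both genes, as for Fabp6, each of the libraries was nearer to the other section than to its own. The call of Mbl2 among the sections had an adjusted p of 0.0477 and was lost on leaving out any of 11 of the 15 libraries in turn, with ranges of section means of 1.20 to 1.34.

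**Figure D5:**
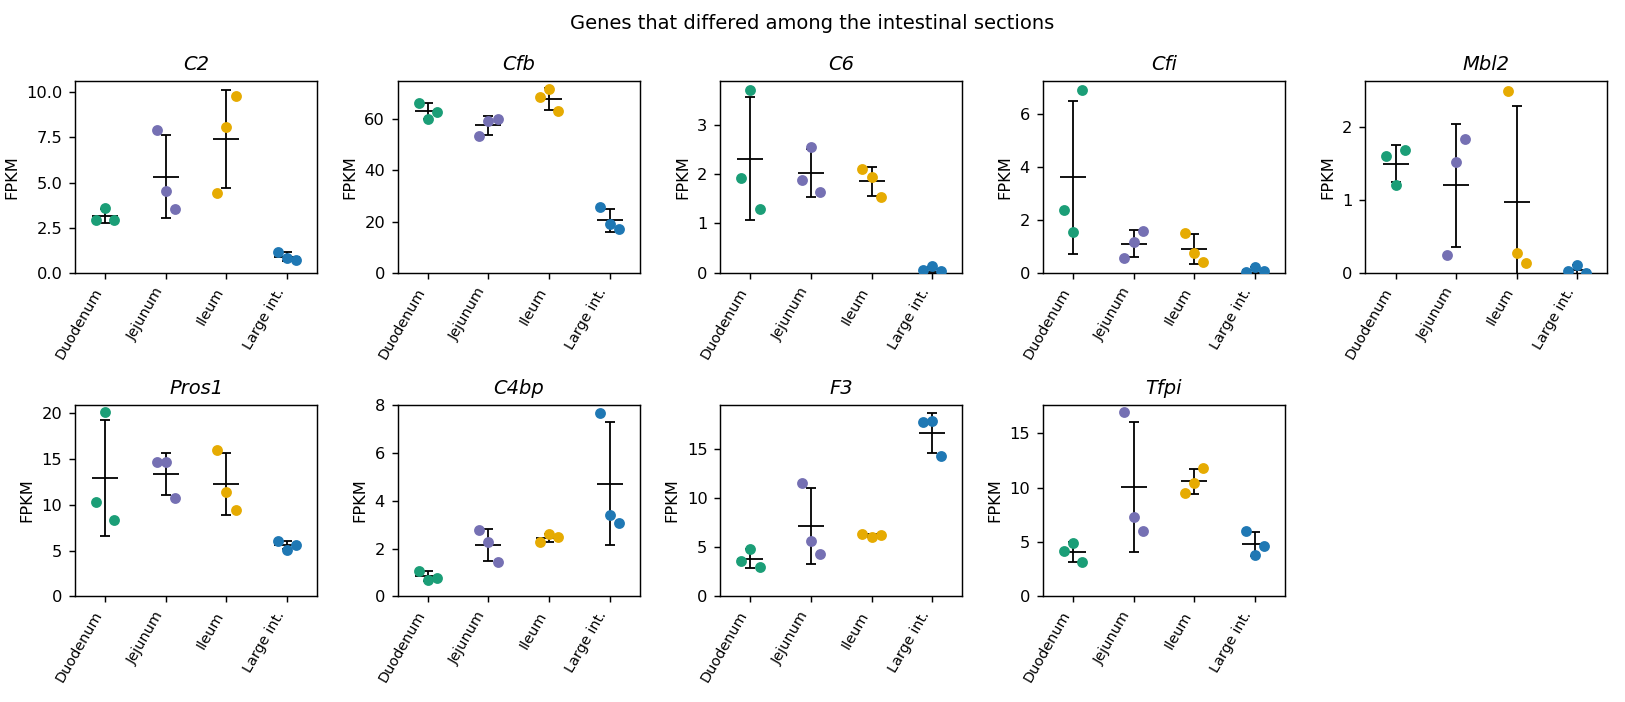
FPKM of the 9 genes called different among the 4 intestinal sections, with each library as a point and mean ± SD (n = 3) as the bar. C2, Cfb, C6, Cfi and Pros1 are lower in large intestine and F3 is higher, and the left-hand points of jejunum and ileum are the libraries numbered 24.

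Other genes of the 2 systems were taken from lists written for this comparison. Of 26 other complement genes tested, 14 had a lower section average than liver and 2 higher (median -1.25), and of 24 other coagulation and fibrinolysis genes 13 were lower and 7 higher (median -1.57), beside 8.90% and 35.7% of all genes. The largest called differences downward were those of Serpinc1, antithrombin (-8.96 (SE 0.10, adjusted p = 7.30e-18)), Hrg, the histidine-rich glycoprotein (-8.21), and Cfhr2, a factor H-related protein (-7.83). Each of these passed the filter through liver alone and had to differ. The largest upward were those of F2rl1, the protease-activated receptor PAR2, Plgrkt, a plasminogen receptor, and Plau, urokinase.

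F2rl1 stood at 0.0405, 0.0826 and 0.0480 FPKM in liver, 11.9, 10.4 and 11.2 in duodenum, 17.2, 14.3 and 12.7 in jejunum, 14.5, 19.1 and 18.2 in ileum and 30.5, 37.9 and 31.2 in large intestine. It was near 0 in liver, over 10 FPKM in every intestinal library and highest in the large intestine, with differences of 4.13 (SE 0.10, adjusted p = 4.53e-14) from liver, which it had to exceed since it passed the filter through intestinal libraries alone, and 1.17 (SE 0.10, adjusted p = 3.79e-07) between large and small intestine. Plgrkt was at 3.36 ± 0.590 FPKM in liver and 68.4 to 82.3 in the intestinal libraries (4.12 (SE 0.08, adjusted p = 5.02e-15)). Plau was at 0.553 ± 0.0874 FPKM in liver and 10.4 ± 1.05 in large intestine (2.27 (SE 0.14, adjusted p = 2.64e-09)), and it too reached 1 FPKM in intestinal libraries alone.

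Between large and small intestine the largest called differences of these other genes were in Habp2, Proz and Itgax downward and in Hgfac, Fcna and F13a1 upward. Habp2, the factor VII-activating protease, was at 48.3 ± 4.66 FPKM in liver, 11.8 ± 3.78 in jejunum and at most 0.0302 in large intestine (-3.16 (SE 0.16, adjusted p = 2.20e-09)). Proz, protein Z, followed the same order, with 106 ± 4.34 FPKM in liver, 9.38 ± 1.46 in duodenum and 0.291 ± 0.0619 in large intestine (-2.60 (SE 0.13, adjusted p = 1.52e-09)). Hgfac, the activator of hepatocyte growth factor, stood at 63.2 ± 3.44 FPKM in liver and 86.9 ± 12.2 in large intestine, where it was higher than in the small intestine by 2.87 (SE 0.21, adjusted p = 1.41e-07). Itgax, the integrin chain of complement receptor 4, was lower (-1.21 (SE 0.23, adjusted p = 5.28e-04)). Fcna, a ficolin, and F13a1, the catalytic subunit of factor XIII, were higher (1.63 and 1.38). F13a1 reached 1 FPKM in 0 liver and 3 intestinal libraries, the minimum of the filter, so it passed only through the libraries where it was highest.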

How the data were processed

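RNA from liver and 4 sections of the intestine of mice was sequenced in 15 libraries, 3 for each tissue, from 3 µg of total RNA with a TruSeq kit, per the labels' protocols. The authors deposited FPKM for 23845 gene records. Per the submitters' processing notes, reads were handled with CASAVA, FastQC, TopHat2 2.0.3, Bowtie 0.12.8, SAMtools 0.1.18 and Cufflinks 2.0.0 on mm10. FPKM hold no read counts, so library depth is unknown and values carry no counting interval. All 15 columns matched a sample.

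Records of the same symbol were summed, except 27 symbols that spreadsheets had turned into dates, and 13757 genes with at least 1 FPKM in at least 3 libraries were kept. Starts are given 1-based, after adding 1, since 8413 then matched GENCODE M21 starts, against 840 as listed. Values were taken as log2(FPKM + 1) and fitted with limma 3.58.1 (R 4.3.3; statmod 1.5.0) with a mean for each tissue over all 15 libraries, with trend and robust settings, and adjusted by the Benjamini-Hochberg method over all genes tested. An F test over the section means, with a minimum range of 1, served for differences along the gut. The fit was tested on simulated data. Tables were computed and figures drawn in Python 3.11.15 (pandas 2.3.3, numpy 2.4.6, matplotlib 3.10.9).

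The genes, lists, tests and alternatives were chosen with earlier results of these data known, and lists and roles come from general knowledge. Values by library are given for genes called higher in a section or overlapping with liver, for liver-high genes with a section mean of at least 5 FPKM, and for the gene with the highest liver mean of each role; a few others were named after their values were seen. Of the other pathway genes, the 3 largest called differences each way are named. Alternatives were the pseudocount (0.1), no filter, 3 other scalings, records kept apart, no minimum on the difference, plain eBayes, a replicate block, and leaving out libraries.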

Additional observations from a re-analysis of the deposited data

How the results depend on the processing

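For the 211 called results of single genes, 5412 of 5486 values under the alternatives kept the call and its direction, 74 lost the call and 0 reversed. For the 106 results against liver or between sections that were not called, 89 of 2756 values were called, 0 of them against the reported direction, and 112 had the opposite sign without a call. The counts of the 44 genes lower than liver stayed at 34 to 36 in duodenum, 34 to 35 in jejunum and ileum, 34 to 38 in large intestine and 34 to 37 in the mean of the sections. Counts of higher genes depended on scaling: with median-of-ratios scaling they were 1 in duodenum, 3 in jejunum, 2 in ileum, 3 in large intestine and 2 in the mean, and with quantile normalization 1, 2, 1, 3 and 2, where the genes called higher in a section numbered 3 and those in neither class 7. In duodenum 5 were higher with a pseudocount of 0.1 FPKM, with the adjusted p only, and without the 3 libraries with more albumin, an alternative chosen after seeing the data that leaves 1 duodenum library, taken to vary like the others. Leaving out each library in turn gave 2 to 4 higher in duodenum, 4 to 5 in jejunum, 5 to 6 in ileum, 4 to 5 in large intestine and 4 to 6 in the mean, 34 or 35 lower in each, 21 to 23 genes with every section mean under 1 FPKM, 11 to 13 liver-high with intestinal signal, 6 gut-high and 4 mixed.

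For large against small intestine, lower genes numbered 11 with the adjusted p only and 4 to 6 on leaving out each library, and higher genes 4 with a pseudocount of 0.1, 3 with the same sum of FPKM, 2 without the libraries numbered 24 of jejunum and ileum, 6 with the adjusted p only, 2 without the libraries with more albumin and 1 to 2 on leaving out each library. For ileum against duodenum, lower genes numbered 3 with a pseudocount of 0.1, 0 with no filter, 2 without the libraries numbered 24, 3 with the adjusted p only, 0 without the libraries with more albumin and 0 to 2 on leaving out each library, and higher genes 3, 1, 3, 3, 0 and 0 to 2. Genes that differed among sections numbered 19 with a pseudocount of 0.1, 17 with the adjusted p only and 8 to 9 on leaving out each library. The causes were not tested.

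The labels do not say whether equal title numbers mark the same animal, and the numbers were not treated as pairs. Over 22 pairs of the same number, deviations from the tissue means correlated from -0.49 to 0.16, with 4 over 0.1. Over 68 other pairs they correlated from -0.40 to 0.52. The lowest value was that of jejunum 24 with ileum 24. Deviations from means of 3 libraries cannot settle whether the numbers mark animals. With the number as a replicate block, ileum against duodenum had 0 genes lower and 0 higher. With the block, Cfi was -0.98 and not called between large and small intestine, Mbl2 was not called among sections, Cd55 was 0.99 and not called in ileum, and the other counts stayed within 1.5 times. FPKM give no depth, so how far low values reflect few reads is unknown.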

Other observations

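Other cell type markers, whose part in the results was not tested, differed between tissues. The sum of 6 smooth muscle markers was 6.91 to 13.1 FPKM in liver, 476 to 1048 in small intestine libraries and 2286 to 3322 in large intestine. The sum of 4 measured T cell markers was 0.736 to 1.64 FPKM in liver, 13.1 to 132 in small intestine and 1.42 to 4.61 in large intestine, and that of 5 B and plasma cell markers was 1.96 to 2.98 in liver and 118 to 326 in the intestine. Red blood cell markers summed to 405 to 755 FPKM in liver and 37.1 to 401 in the intestine, where ileum 25 was the highest, and mesothelial markers to 1.0 to 2.04 in liver and 0.951 to 5.96 in the intestine.

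Clu, or clusterin, an inhibitor of the terminal complement complex named after its values were seen, varied widely between libraries of the same section: 25, 4.32 and 70.5 FPKM in duodenum 24, 27 and 28, 53.0, 8.99 and 6.75 in jejunum 24, 27 and 28, and 4.97, 20.0 and 42.9 in ileum 24, 25 and 27. It was at 528 ± 16.4 FPKM (SD, n = 3) in liver.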
